A study of Mus musculus with 4 samples.

Results

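Contacts between acetylated chromatin regions were examined at the loci of 2 glutamate receptor genes, Grin2a and Gria1, in 2 classes of inhibitory neuron of the mouse cortex, those marked by somatostatin (SST) and those marked by vasoactive intestinal peptide (VIP). A member was any interaction with at least 1 anchor overlapping, by 1 bp, chr16:8900000-10050000 for Grin2a with its flanks or chr11:55900000-57200000 for Gria1 with its upstream flank (build mm9). An anchor is the stretch of chromatin at one end of an interaction. By this rule 162 of 15011 listed interactions were members, 146 of 8278 in SST and 16 of 6733 in VIP. The loci were chosen by earlier counts of interactions in these lists, which were higher in SST, so that difference is given below as a description and was not tested. An mm9 annotation was not used here, so the genes stand where the rule places them, and no anchor was assigned to a promoter, exon or intron.

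The nuclei came from adult C57BL/6 mice of genotype Sst-cre; Sun1 or Vip-cre; Sun1. In INTACT a Cre driver turns on tagged Sun1, a protein of the nuclear envelope, and the tagged nuclei are captured, so each list covers whatever cells the driver has marked. The assay was HiChIP, which cuts and rejoins crosslinked chromatin, here with MboI, and keeps contacts that carry a chosen mark, here H3K27ac, acetylation found at active promoters and enhancers. The labels describe 2 samples per cell type, and 1 interaction list per cell type, attached to replicate 1, was analysed, so nothing could be tested against a spread between animals. The lists give positions without read counts, the read depth is unknown, and a contact that a list lacks may still exist below the limit of detection.

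Grin2a encodes GluN2A, a subunit of NMDA receptors, the glutamate-gated channels that open when glutamate binding coincides with depolarization and that let calcium in. GluN2A-containing receptors become more common as cortical synapses mature. Gria1 encodes GluA1, a subunit of AMPA receptors, which carry most of the fast excitatory current and whose number at the synapse changes during plasticity. SST interneurons inhibit the dendrites of excitatory cells, and VIP interneurons mainly inhibit other interneurons, SST cells among them. Both classes receive glutamatergic input. In the GRCm38.p6 gene order of RefSeq, used here for names alone, the nearest protein-coding neighbours of Grin2a (gene ID 14811) are 1810013L24Rik and Rpl39l, and those of Gria1 (gene ID 14799) are Nmur2, a neuromedin U receptor gene, and Fam114a2.

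At the Grin2a locus 61 interactions were listed in SST (Poisson 95% interval 46.7 to 78.4), against 2 in VIP (0.242 to 7.22). These are 7.37 per 1000 interactions of the SST list and 0.297 per 1000 of the VIP list, a ratio of 24.8 with a counting interval of 6.58 to 209. At the Gria1 locus 85 were listed in SST (67.9 to 105), against 14 in VIP (7.65 to 23.5), or 10.3 and 2.08 per 1000, a ratio of 4.94 (2.79 to 9.41). Both loci thus had more listed contacts in SST, and the VIP list held a small network at Gria1 and almost nothing at Grin2a. The intervals cover counting error only, treat interactions that share an anchor as independent, and ignore that the loci were chosen for the difference. When anchors within 5 kb of each other were merged, Grin2a had 15 SST and 2 VIP interactions and a ratio of 6.13, and Gria1 had 58 and 13 and a ratio of 3.65.

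Large differences between the lists were common. Among 312 tiles of the width of the Grin2a locus with at least 20 interactions, 33.7% had at least 2 times as many SST as VIP interactions per 1000, and 30.1% had the opposite. In 33 other tiles the ratio was at least as large as at Grin2a, and 27 of these had no VIP interaction. For the width of the Gria1 locus, 33.0% of 303 tiles had at least 2 times as many in SST and 30.4% at least 2 times as many in VIP, and 56 other tiles had a ratio at least as large as at Gria1. The loci were chosen through 1 Mb windows counted by interaction midpoint, in which chromosome 11 from 56 to 57 Mb ranked 5 of 1160 by SST minus VIP per 1000 and chromosome 16 from 9 to 10 Mb ranked 6. The last window inside that choice of 10, chromosome 14 from 24 to 25 Mb, had 45 SST and 0 VIP interactions, and the first outside it, chromosome 8 from 14 to 15 Mb, had 47 and 2.

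**Figure D1:**
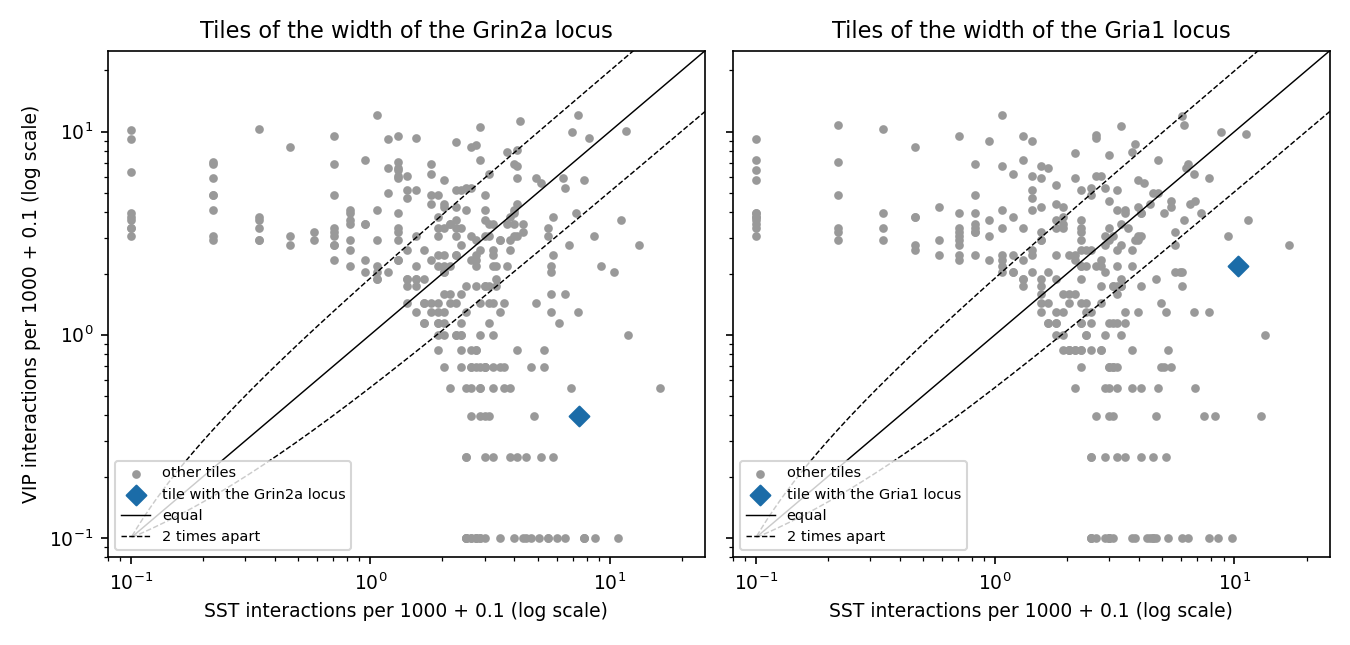
SST (x axis) and VIP (y axis) interactions per 1000 of each list, with 0.1 added so that tiles at 0 can be drawn on log axes. Each grey point is a tile of the width of the Grin2a locus (left) or the Gria1 locus (right) with at least 20 interactions, and the diamond is the tile with the locus, at 7.37 in SST and 0.297 in VIP for Grin2a and at 10.3 in SST and 2.08 in VIP for Gria1. The dashed lines mark 2 times as many in one list, and many other tiles lie outside them on both sides.

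Every member had both anchors inside its locus. No interaction spanned either locus, but none could have done so. The longest distance was 999.7 kb in the whole SST list and 995.5 kb in the whole VIP list, less than the width of either locus. Nothing is therefore read from the lack of spanning interactions. The longest SST contacts named below come close to this limit, and longer ones may exist that the list does not hold. At Grin2a the SST contacts ran from 8936599 to 9998988, and the nearest SST interaction outside lay 1668 kb before the left edge. The nearest VIP interaction outside was 356 kb before that edge. At Gria1 the SST contacts ran from 55943142 to 57137880 and the VIP contacts from 55977353 to 57093633. There the nearest outside interactions lay 1215 kb to the left and 913 kb to the right in SST, and 1216 kb and 913 kb in VIP. The outermost Gria1 anchors lay 43.1 and 62.1 kb inside the left and right edges in SST, and 77.4 and 106 kb inside them in VIP, so in both lists the contacts stood apart from those around the locus.

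The SST contacts of Grin2a joined 16 anchors into one connected network. A single distal anchor, chr16:8993529-9016262, stood apart from the rest, with 11 interactions, all of them to the right over 584 to 987 kb. A second, smaller distal anchor, chr16:8936599-8946762, had 1 interaction, over 678 kb. After these came an empty stretch of 563 kb, and then 14 anchors between 9578963 and 9998988. Of the 61 interactions, 49 joined anchors of this right-hand group to each other and 12 crossed the empty stretch. In the right-hand group 53.8% of the 91 anchor pairs were linked, and across the stretch 48.0% of the 25 pairs within 1 Mb were linked. The distal anchor was linked to 11 of the 14 anchors on the far side.

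The most connected Grin2a anchor in SST was chr16:9599598-9639644, which was 40.05 kb wide and took part in 15 interactions, 3 to its left and 12 to its right. Its neighbour chr16:9641673-9669799 took part in 13, and chr16:9749818-9787325 in 12, of which 6 went each way. The rightmost anchor, chr16:9983924-9998988, took part in 11, all to its left and over 90.6 to 987 kb. With the distal anchor these 5 had more interactions than the other anchors, the next being chr16:9828522-9864411 with 9. The leading anchor held 24.6% of the contacts (14.5 to 37.3%), and 14 of 16 anchors had 3 or more. In 145 of 159 other tiles with at least 20 SST interactions the leading anchor held a larger share. This depended on how the anchors were divided, since with anchors within 5 kb merged the leading anchor held 46.7%, and 73 of 159 tiles had a larger share. The locus was chosen for many SST contacts, 61 against a tile median of 28, which bears on this share. Nothing is read from its place among the tiles. The other 11 anchors had 1 to 9 interactions each, and the 3 narrowest of the right-hand group, 4.84 to 12.7 kb wide and side by side before the rightmost anchor, had 2 or 3, all to their left. The longest contact, over 987 kb, joined the distal anchor to the rightmost one. The shortest, over 19.4 kb, joined chr16:9790068-9805959 to its neighbour chr16:9806847-9828002.

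Both VIP contacts of Grin2a started from an anchor in the stretch that was empty in SST. This anchor, chr16:9332671-9345590, lay 233 kb from the nearest SST anchor. One contact reached chr16:9749818-9762970 over 417 kb and the other reached chr16:9990176-9998988 over 655 kb. The far ends fell on SST anchors with 12 and 11 interactions, both among the 5 leading SST anchors, and one began and the other ended on the same base as its SST counterpart. The SST anchors at these ends were linked to each other in SST, and the VIP anchors there were not linked in VIP. No Grin2a interaction was shared, which means having both anchors overlapped by those of an interaction in the other list. That is 0 of 61 in SST (exact 95% interval up to 5.87%) and 0 of 2 in VIP (up to 84.2%), beside 21.4% and 25.8% of the whole lists, and 121 of 159 other tiles had a larger SST share than 0. Of the 61 SST contacts, 39 had neither anchor in VIP, or 63.9%, beside 40.2% over the whole SST list. Nothing is read from these gaps, since a locus chosen for many SST and few VIP contacts, with 3 VIP anchors, could hardly share more.

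**Figure D2:**
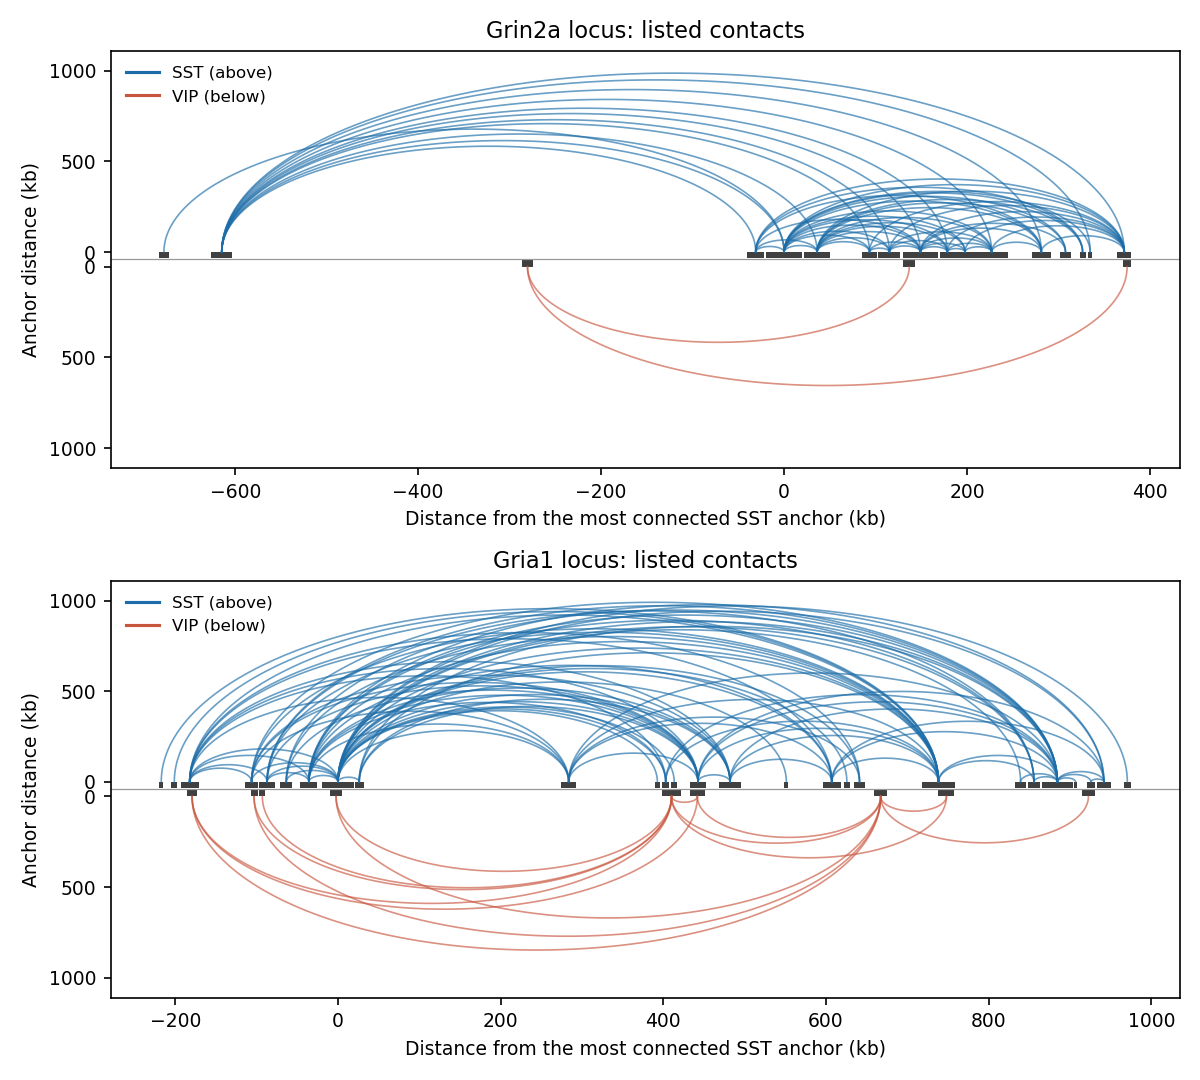
Listed contacts at the Grin2a locus (top) and the Gria1 locus (bottom), drawn as arcs between anchor midpoints, with SST above the line and VIP below it. The x axis is the distance in kb from the most connected SST anchor, the height of an arc is the distance in kb between its anchors, and dark boxes are anchors at their true widths. At Grin2a, 61 SST arcs contrast with 2 VIP arcs that start in a stretch without SST anchors, and at Gria1, 85 SST arcs contrast with 14 VIP arcs.

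The SST contacts of Gria1 joined 27 anchors into one network, with groups of anchors on both sides of an empty stretch. The widest empty stretch, 243 kb, ran from 56194406 to 56437432, with 9 anchors to its left and 18 to its right by coordinate. Of the 85 interactions, 50 crossed it, or 58.8%, while 10 lay within the left-hand group and 25 within the right-hand group. The share of anchor pairs that were linked was 38.2% of 131 pairs across the stretch, 27.8% of 36 pairs on the left and 16.3% of 153 pairs on the right. The split at the widest stretch was made after the layout had been seen, and pairs that share an anchor are not independent. These shares were not computed with merged anchors, although merging within 5 kb moved the share over all Gria1 pairs from 26.6% to 52.7%.

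The most connected Gria1 anchor in SST was chr11:56143527-56182072, 38.5 kb wide, with 22 interactions, of which 17 went to the right. It lay on the left side of the empty stretch. The anchor chr11:57027734-57066540, near the right end, had 17 interactions, 14 of them to its left, and chr11:56880957-56920963 had 16, likewise 14 to its left. The anchors chr11:56116519-56137518 and chr11:56595764-56614972 had 12 each. Together these 5 formed the upper end of a wide range, since 8 of the 27 anchors had a single interaction and 17 had 3 or more. Near the left end, chr11:55969415-55991613 had 11 interactions, all to its right and over 76.1 to 920 kb. The first anchor past the empty stretch, chr11:56437432-56455468, had 9, of which 4 went left and 5 right. The leading anchor held 25.9% of the contacts (17.0 to 36.5%), and in 139 of 154 other tiles the leading anchor held more. With merged anchors it held 24.1%, and 153 of 154 tiles had more. This locus had 85 SST contacts and 27 anchors, against tile medians of 30 and 15, and was chosen for many contacts. Nothing is read from the place of the leading share among the tiles. The longest contact, over 991 kb, joined chr11:56048925-56064293 to chr11:57027734-57066540, and the shortest, over 16.0 kb, joined chr11:57083201-57093633 to chr11:57095624-57113112.

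In VIP the Gria1 contacts used 9 anchors, and 13 of the 14 interactions touched one of 2 anchors with 7 interactions each. The first, chr11:56561362-56584335, overlapped 2 SST anchors with 5 and 1 interactions. The second, chr11:56821823-56838150, overlapped no SST anchor and lay 10.9 kb from the nearest one, although the other 8 VIP anchors of the locus all overlapped SST anchors. The remaining named VIP anchors were chr11:55977353-55989586 and chr11:56595764-56613463 with 3 interactions each, and chr11:56055316-56063970, chr11:56153401-56167552 and chr11:56900844-56920712 with 2 each. The SST anchors overlapping these 5 had 11, 12, 7, 22 and 16 interactions. The anchor that led in SST, with 22 interactions, thus overlapped one with 2 in VIP. The SST anchor with 17 interactions overlapped no VIP anchor, the nearest lying 10.5 kb away. VIP distances ran from 31.8 to 847 kb.

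Of the Gria1 interactions, 5 of 85 in SST were shared, or 5.88% (1.94 to 13.2%), and 4 of 14 in VIP, or 28.6% (8.39 to 58.1%), beside 21.4% of the SST list and 25.8% of the VIP list. The VIP share is thus near that of its list, and the low SST share is bounded by the 14 VIP contacts of a locus chosen for having few. In VIP each shared contact had an end at chr11:56561362-56584335 or at chr11:56595764-56613463. From chr11:56561362-56570032, SST contacts reached chr11:55969415-55991613 over 585 kb, chr11:56143527-56182072 over 403 kb and chr11:56880957-56920963 over 335 kb, and VIP listed counterparts over 589, 412 and 338 kb. A further SST contact of chr11:56143527-56182072, to chr11:56572477-56579841 over 413 kb, matched the same VIP contact of 412 kb. The last shared contact joined chr11:55969415-55991613 to chr11:56595764-56614972 over 625 kb in SST, and its VIP counterpart spanned 621 kb. All 5 were longer than the SST list's median of 178 kb, but the SST median at this locus was itself 466 kb. Another 13 SST contacts, 15.3%, had both anchors in the VIP list without being linked there, 47 had one anchor there (55.3%) and 20 had neither (23.5%). Over the SST list these shares were 8.14%, 30.2% and 40.2%, so the share with neither anchor was below that of the list at Gria1 and above it at Grin2a. In VIP, 3 of the 14 contacts had both anchors in SST without the link (21.4%), 7 had one anchor (50.0%) and 0 had neither, beside 8.72%, 31.5% and 33.9% of the VIP list. Gria1 was chosen for many SST contacts, and its 27 SST anchors covered 36.7% of their span. Since this bears on how often anchors overlap, nothing is read from the gaps between these shares and those of the lists.

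**Figure D3:**
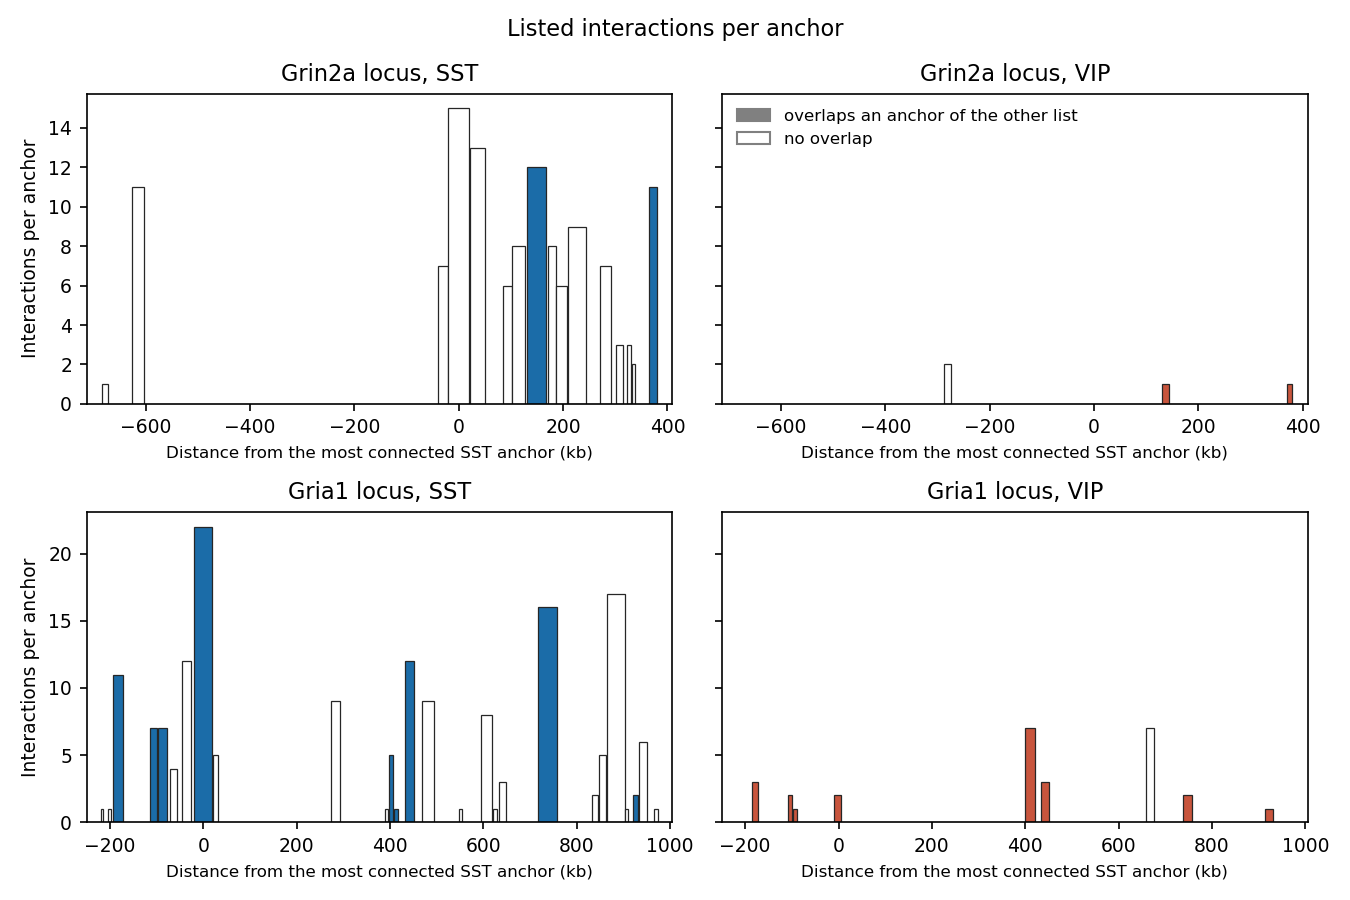
Number of listed interactions per anchor (y axis) against distance in kb from the most connected SST anchor (x axis), for the Grin2a locus (top) and the Gria1 locus (bottom), in SST (left) and VIP (right). Bars have the width of the anchor, or 4 kb where it is narrower, and are filled where the anchor overlaps one of the other list. Filled bars are 2 of 16 in SST and 2 of 3 in VIP at Grin2a, and 9 of 27 in SST and 8 of 9 in VIP at Gria1, beside 36.9% of all SST anchors and 43.5% of all VIP anchors. The loci were chosen for many SST and few VIP contacts, which bears on these shares.

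Set side by side, the SST networks differed in reach with the anchors as deposited. The median distance was 191 kb at Grin2a and 466 kb at Gria1, against 178 kb over the SST list. Contacts over 400 kb made up 21.3% at Grin2a (13 of 61) and 61.2% at Gria1 (52 of 85), against 24.5% of the list. With anchors within 5 kb merged, Grin2a had 15 SST contacts, of which 40% spanned 600 to 1000 kb and 0% spanned 400 to 600 kb. The merged list had 11.8% and 16.9%, so the Grin2a share over 400 kb was then above the list. At Gria1 the merged shares were 31.0% and 27.6%, below Grin2a at 600 to 1000 kb and above it at 400 to 600 kb. The contrast between the loci thus depended in part on how their anchors were divided. The medians were not computed with merged anchors. In 12 of 154 other tiles of its width the SST median was longer than at Gria1, and in 104 of 159 it was longer than at Grin2a. The Gria1 contacts in VIP were also long, with a median of 458 kb and 8 of 14 over 400 kb. Distances at Grin2a fell into separate ranges, since 49 contacts lay within the right-hand group and the 12 that crossed the empty stretch all spanned at least 584 kb.

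The likelihood that a pair of anchors was linked changed with distance in different ways. Over the whole SST list, 39.7% of anchor pairs up to 100 kb apart were linked and 7.53% of pairs 600 to 1000 kb apart. At Gria1 the share was 25.9% up to 100 kb (15.0 to 39.7%), 17.5% at 200 to 400 kb (9.05 to 29.1%) and 35.2% at 600 to 1000 kb (25.3 to 46.1%). At Grin2a it was 54.5% up to 100 kb (36.4 to 71.9%) and 45.8% at 600 to 1000 kb (25.6 to 67.2%). With anchors within 5 kb merged, 600 to 1000 kb gave 6 linked of 10 pairs at Grin2a, 58.1% of 31 pairs at Gria1 and 10.3% in the list. The nearer classes moved more under merging. Up to 100 kb, 1 of 7 Grin2a pairs was then linked, and the Gria1 share was 6 of 15 pairs up to 100 kb and 57.9% of 19 pairs at 200 to 400 kb, so the lower Gria1 value at 200 to 400 kb was not seen with merged anchors. The values above the list at 600 to 1000 kb were found both with deposited and with merged anchors. These are descriptions of 1 list, and the pairs at a locus share a small number of anchors. Both loci were chosen for many SST contacts, which bears on their linked shares, so nothing is read from the values above the list.

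**Figure D4:**
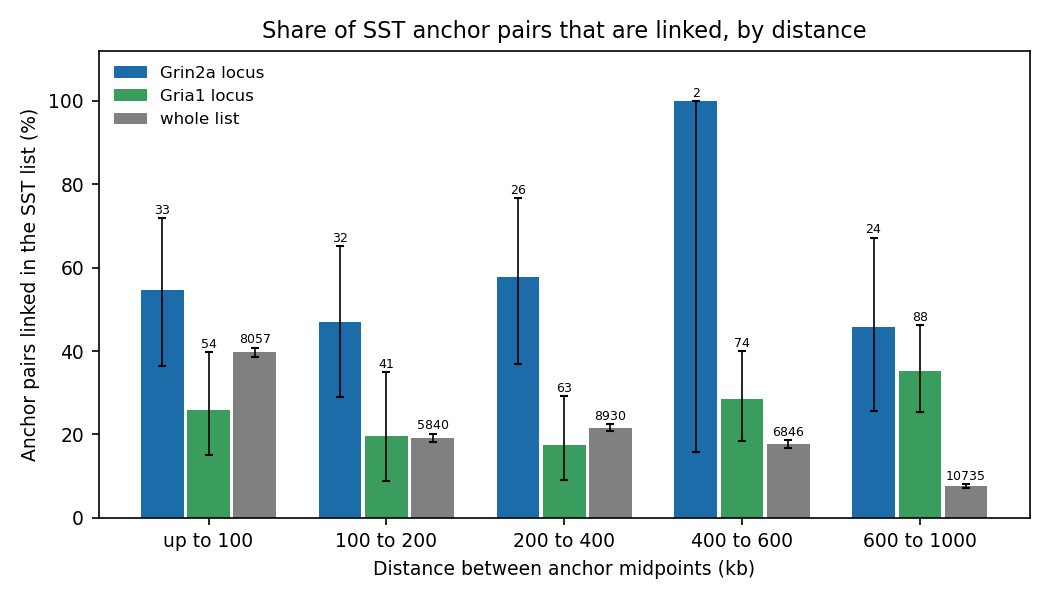
Share of anchor pairs that were linked in the SST list (y axis, percent) by distance between anchor midpoints in kb (x axis), for the Grin2a locus, the Gria1 locus and the whole list. Bars are shares, error bars are exact 95% binomial intervals that cover counting error only, and small print over each bar gives the number of pairs. The list drops to 7.53% at 600 to 1000 kb, where Grin2a stands at 45.8% and Gria1 at 35.2%. Both loci were chosen for many SST contacts, which bears on their shares.

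Taking all pairs within 1 Mb, 52.1% of the 117 Grin2a pairs were linked in SST (42.7 to 61.5%), and 5 of 159 other tiles had a larger share. At Gria1 26.6% of 320 pairs were linked (21.8 to 31.8%), and 52 of 154 tiles had a larger share. With anchors within 5 kb merged the shares were 57.7% of 26 pairs and 52.7% of 110 pairs, so the lower value at Gria1 depended on how its anchors were divided. At Grin2a 8 of the 15 gaps between neighbouring anchors were 5 kb or less, the smallest 520 bp, and at Gria1 11 of 26 were. In SST, 60 of 61 contacts at Grin2a (98.4%) and 77 of 85 at Gria1 (90.6%) belonged to triangles of mutually linked anchors, beside 67.1% over the list. In VIP 12 of 14 Gria1 contacts did (85.7%), beside 66.3% of the list. Neither Grin2a contact in VIP could, since 2 contacts cannot form a triangle. The loci were chosen for many SST contacts, which bears on the SST shares of linked pairs and of triangles. Nothing is read from their differences from the list or from other tiles. Neighbouring anchors were linked to each other in 10 of 15 cases at Grin2a and in 7 of 26 at Gria1 in SST. Neither triangles nor links between neighbours were computed with merged anchors.

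Wide anchors had more contacts. Over the 16 Grin2a anchors of SST the Spearman correlation of width and number of interactions was 0.82, over the 27 of Gria1 it was 0.94, and over the 5842 of the list 0.62. These are correlations across anchors of 1 list, given as descriptions. The SST anchors had a median width of 20.2 kb at Grin2a and 15.2 kb at Gria1, against 11.8 kb in the list, and covered 333 and 439 kb. The VIP anchors had medians of 12.9 kb and 16.3 kb, against 12.4 kb in the list, and covered 34.9 and 136 kb. The loci were chosen for many SST contacts, which bears on the SST widths and correlations. Nothing is read from the differences between these SST values and those of the list.

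By counts per 1000 in the SST and VIP lists, the tile most like the Grin2a locus was chr10:118450001-119600000, with 56 SST and 3 VIP interactions. It was followed by chr8:13800001-14950000 with 47 and 1 and chr1:93150001-94300000 with 64 and 0. The tile most like the Gria1 locus was chr9:40300001-41600000, with 86 and 14, followed by chr15:76700001-78000000 with 77 and 20 and chr17:9100001-10400000 with 93 and 24. Likeness was the distance between log2(per 1000 + 1) values over the 2 lists, from 0.19 to 0.38 for the Grin2a tiles and from 0.015 to 0.58 for the Gria1 tiles. It rests on 1 value per cell type and tells nothing of which anchors were joined.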

How the data were processed

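H3K27ac HiChIP libraries were made from INTACT nuclei of adult mouse cortex, per the labels' protocols. Per the submitters' processing notes, HiC-Pro and build mm9 were used. How interactions were called, at what threshold and between which anchors, and whether replicates were pooled, is not stated in these sources. The deposited lists hold 6 columns, the positions of paired anchors, with no count, score or p-value, and each value analysed here was counted from them. Starts are printed as deposited and may be off by 1 bp, depending on the convention.

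The loci, members and measures were chosen with earlier results of these data known. An interaction was shared when both anchors overlapped, by at least 1 bp, the anchors of one interaction of the other list. Distances are between anchor midpoints. Pairs of anchors up to 1 Mb apart were taken as linkable. Tiles of the width of each locus were laid end to end over each chromosome, and an interaction was counted in every tile that an anchor overlapped. Named were the 5 anchors with the most interactions per locus and list (ties included), the longest and shortest contacts, VIP or shared contacts where 10 or fewer, and the 3 most similar tiles. Other anchors are named where they describe the layout, chosen after their values were seen. Intervals are exact 95% Poisson, Clopper-Pearson or conditional binomial intervals. No test was run, since there is 1 list per cell type. The code was checked on simulated lists. Python 3.11.15, numpy 2.4.6, scipy 1.17.1 and matplotlib 3.10.9 were used. Other glutamate receptor genes, cell type markers and sequences were not placed, since an mm9 genome and annotation were not used here.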

Additional observations from a re-analysis of the deposited data

How the results depend on the processing

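Over 34 results, 96 alternative values were computed, of which 73 stayed within their interval or within 1.5 times the count. The tally includes values that could not change and values judged against very wide intervals, so it does not measure stability. Each alternative count of contacts was higher in SST than in VIP at both loci. Nothing is read from this, since the loci were chosen for that difference. Counting by both anchors or by midpoint and moving the edges by 100 kb changed none of the counts at the loci. Every member had both anchors inside, and the nearest interaction outside lay 356 kb away. Of these recounts, only moving the edges in could therefore have changed a count. Up to 200 kb, Grin2a had 33 SST and 0 VIP interactions and Gria1 had 22 and 2, as longer contacts are left out by construction. Merging anchors within 5 kb joins neighbours by construction. It gave 15 SST interactions and a ratio of 6.13 at Grin2a, where the leading anchor then held 46.7%. At Gria1 52.7% of pairs were then linked, and 89.0% of tiles, against 66.2% as deposited, had a smaller share. The leading anchor held a larger share in 45.9% of tiles at Grin2a, against 91.2% as deposited, and in 99.4% at Gria1, against 90.3%. With identical anchors the overlapping SST and VIP anchors were 0% at Grin2a and 0% at Gria1, and shared contacts at Gria1 were 0%. Tiles at least 2 times apart, with at least 40 interactions, were 25.9% in favour of SST and 35.6% in favour of VIP at the width of Grin2a, and 28.2% and 32.3% at the width of Gria1. At both widths VIP was then the more frequent direction, while SST was at 20 interactions. At 4 times they were 23.7% and 18.6% for Grin2a and 20.5% and 18.5% for Gria1. The merged shares among tiles were chosen after seeing the data, as were the split at the widest stretch and the distance classes. No paired analysis was possible because a single list per cell type was at hand, with no value per replicate to pair or to leave out. Since the read depth is unknown, low depth and absence of a contact cannot be told apart.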
